A study of Mus musculus with 6 samples.

Results

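Col10a1, Mmp13 and Panx3 are genes of cartilage hypertrophy, and they were followed here through Digits in a Dish (DID) cultures, in which cells of the mouse limb bud reassemble into digit-like cartilage. The members were taken by gene symbol alone, which gave 3 of the 32286 genes in the count matrices, and all 3 were above the filter on low counts. The cultures were started from dissociated distal forelimb mesenchyme of wildtype CD-1 mouse embryos at E11.5, pooled over embryos and grown in medium with serum but no other added growth factor. Cells were profiled at Day 2, Day 7 and Day 10 of culture by droplet single-cell RNA sequencing that counts unique molecular identifiers (UMIs) at the 3′ end of transcripts. There were 2 independent cultures a day, replicate A and replicate B. The p-values between days measure the spread between these 6 libraries. Those between cell classes measure the spread of class sums that is left once each library's own level is taken out. No treatment, mutant or in vivo limb was compared, and time in culture was the only factor.

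During endochondral bone formation, chondrocytes stop dividing, enlarge and change the matrix they lay down before that matrix is mineralized and partly removed. Col10a1 encodes the collagen of hypertrophic cartilage matrix and is the usual marker of that state. Panx3 encodes a channel protein of prehypertrophic and hypertrophic chondrocytes and of osteoblasts. Mmp13 encodes a collagenase made by terminal hypertrophic chondrocytes and by osteoblasts. Ihh, a signal from prehypertrophic cells, and Pth1r, the receptor that slows the step into hypertrophy, lie upstream of these genes, and Runx2 and Sp7 are transcription factors that act in both hypertrophic cartilage and bone.

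In the GRCm38 mouse assembly, Col10a1 (ENSMUSG00000039462) lies on the plus strand at chr10:34389981-34397085, where the gene Nt5dc1 overlaps it on the opposite strand. Mmp13 (ENSMUSG00000050578) lies on the plus strand at chr9:7272514-7283331, and Panx3 (ENSMUSG00000011118) lies on the minus strand at chr9:37659902-37669235. The 250 bases upstream of the annotated start are printed for Col10a1 and Mmp13, the members most concentrated in few cells, while Panx3 is named only. Both runs are on the plus strand of GRCm38.p6 as given by RefSeq, at chr10:34389731-34389980 for Col10a1 and chr9:7272264-7272513 for Mmp13, and capitals mark matches to 3 short motifs.
Col10a1: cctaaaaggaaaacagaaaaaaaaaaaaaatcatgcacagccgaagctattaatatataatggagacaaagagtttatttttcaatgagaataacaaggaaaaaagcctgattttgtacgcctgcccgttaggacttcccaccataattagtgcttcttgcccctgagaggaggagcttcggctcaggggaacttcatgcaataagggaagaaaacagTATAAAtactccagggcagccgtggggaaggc
Mmp13: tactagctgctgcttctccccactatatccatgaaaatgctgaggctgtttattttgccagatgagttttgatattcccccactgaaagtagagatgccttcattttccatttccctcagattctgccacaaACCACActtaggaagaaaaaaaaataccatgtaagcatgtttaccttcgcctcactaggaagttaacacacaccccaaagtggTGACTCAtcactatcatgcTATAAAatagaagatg
The motifs searched, on both strands and with no overlaps between the matches, were ACCACA (the core bound by RUNX proteins), TGACTCA (the site of AP-1 dimers) and TATAAA (the TATA box). The Col10a1 run held TATAAA 32 to 27 bases upstream of the start and no match to the other motifs. The Mmp13 run held ACCACA 118 to 113 bases, TGACTCA 35 to 29 bases and TATAAA 16 to 11 bases upstream. Among 32851 mouse promoter runs of the same length, 14.0% held the first motif, 4.46% the second and 12.4% the third, and a match is a description of the letters only.

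After the filters on cells, 9448 to 16486 cells a library were kept, with 178022112 to 260245417 UMIs a library. Median UMIs a cell differed widely: Day 2 had 18587 and 3871, Day 7 had 8062 and 9337, and Day 10 had 24197 and 22128, in replicate A and replicate B in turn. Day 2 replicate B stood apart as the shallowest library, with 41.4% of its kept cells under 3000 UMIs. Levels below are therefore given in CPM, the UMIs of a gene for every 1000000 UMIs of the kept cells, and shares of cells are given both as counted and after thinning each cell to 3000 UMIs. Any pair of libraries shared 24 to 67 cell barcodes, at most 0.543% of a library. Doublets were not removed, and leaving out the deepest 5% of cells was one of the alternatives.

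The levels of all 3 genes were lowest at Day 2 and highest at Day 10, with no overlap between the days in any library. Col10a1 stood at 4.94 and 4.55 CPM at Day 2, 31.5 and 27.9 CPM at Day 7, and 130 and 91.9 CPM at Day 10. Panx3 stood at 1.74 and 2.36 CPM at Day 2, 48.1 and 41.5 CPM at Day 7, and 86.5 and 84.8 CPM at Day 10. Mmp13 was almost unseen at Day 2, with 1 UMI in replicate A and 2 UMIs in replicate B among all kept cells. It stood at 1.98 and 2.28 CPM at Day 7 and at 17.2 and 17.3 CPM at Day 10. Each UMI stands for 1 captured transcript whatever its length. How well the transcripts of each gene are captured was not measured, so the genes are set side by side in UMIs only. On that scale the order changed with time: Col10a1 was highest at Day 2 in both libraries, Panx3 at Day 7 in both, and at Day 10 Col10a1 was well above Panx3 in replicate A (130 against 86.5 CPM) but close to it in replicate B (91.9 against 84.8 CPM). Mmp13 was the lowest of the 3 in every library.

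**Figure D1:**
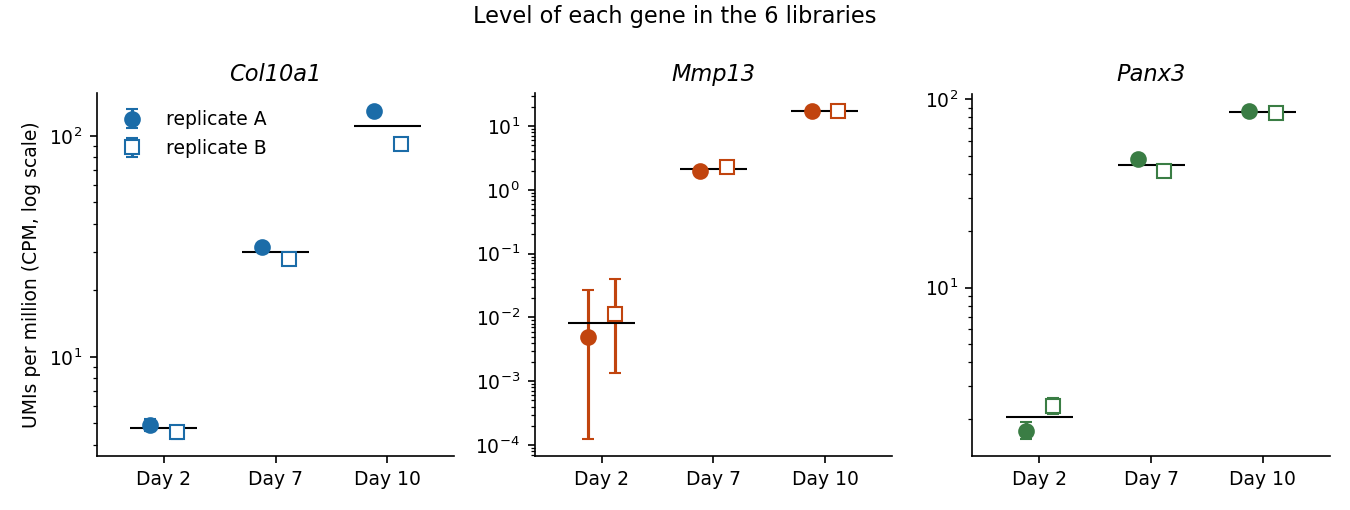
Level of Col10a1, Mmp13 and Panx3 in CPM (log scale) in each library at Day 2, Day 7 and Day 10. Filled circles are replicate A, open squares replicate B, short lines the mean of both, and bars the 95% Poisson interval of the count; the 3 genes rise from day to day, and Mmp13 at Day 2 rests on 1 and 2 UMIs.

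The steps between days were tested with edgeR's quasi-likelihood test on the UMIs summed per library, with Benjamini-Hochberg adjustment over 18987 genes, and a gene was called at an adjusted p under 0.05. From Day 2 to Day 7 Panx3 rose by 4.74 on the log2 scale (SE 0.12, edgeR adjusted p = 1.06e-08) and Col10a1 by 2.93 (SE 0.16, edgeR adjusted p = 6.07e-07). From Day 7 to Day 10 Mmp13 rose by 2.999 (SE 0.085, edgeR adjusted p = 1.57e-06), Col10a1 by 1.88 (SE 0.15, edgeR adjusted p = 3.74e-05) and Panx3 by 0.91 (SE 0.099, edgeR adjusted p = 0.000164). Both steps share the Day 7 libraries. Without the shallow Day 2 replicate B the first step was 4.95 for Panx3 and 2.86 for Col10a1, both still called. From Day 2 to Day 10 Panx3 rose by 5.65 and Col10a1 by 4.81. For Mmp13 the 3 UMIs at Day 2 leave the fitted fold dependent on the prior, so the counts are compared directly. Its ratio of CPM to Day 2 was 272 at Day 7 (95% counting interval 92.7 to 1321) and 2210 at Day 10 (756 to 10719), which covers counting error only. Calls were common in all 3 comparisons. Of all genes tested, 35.7% were called higher and 34.6% lower at Day 7 than at Day 2, 26.3% higher and 25.9% lower at Day 10 than at Day 7, and 39.0% higher and 38.2% lower at Day 10 than at Day 2. A call by itself is therefore not particular to these genes, and the sizes carry the description.

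The other genes of the hypertrophic program were counted whole, as a list of 28 regulators, signals, mineral and matrix genes. At Day 7 against Day 2, 23 of 28 were called higher and 3 lower, with a median log2 change of 1.19 beside 0.01 over all genes. At Day 10 against Day 7, 18 were called higher and 5 lower, with a median of 0.27 beside -0.02. Among the signals, Ihh stood at 5.59 and 6.56 CPM at Day 2, 15.0 and 15.7 CPM at Day 7, and 26.4 CPM in both Day 10 libraries, and it was called higher at both steps (log2 changes 1.62 and 0.76). Pthlh, the ligand of Pth1r that holds chondrocytes short of hypertrophy, went the other way and fell at both steps, from 16.7 and 15.9 CPM at Day 2 to 1.79 and 2.52 CPM at Day 7 and 0.949 and 0.896 CPM at Day 10. Pth1r rose from 58.8 and 63.6 CPM at Day 2 to 89.1 and 82.9 CPM at Day 7 and 190 and 196 CPM at Day 10. Ptch1 and Gli1, targets of hedgehog signalling, moved little: Ptch1 was not called at Day 7 against Day 2 (log2 difference 0.18, edgeR adjusted p = 0.106) and rose by 0.44 at the next step, while Gli1 fell by 0.41 and was then not called (log2 difference -0.25, edgeR adjusted p = 0.161). Vegfa, a signal to blood vessels from hypertrophic cartilage, rose by 1.23 and was then not called (log2 difference -0.11, edgeR adjusted p = 0.0823).

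Among the transcription factors, Sp7 rose at both steps, from 1.81 and 2.03 CPM at Day 2 to 5.30 and 5.08 CPM at Day 7 and 19.7 and 18.9 CPM at Day 10. Runx2 rose by less, with log2 changes of 0.72 and 0.42, as did Runx3 (0.60 and 0.60) and Mef2c (0.35 and 0.31), partners of hypertrophic gene expression. Foxa2 and Foxa3, factors of the same step in cartilage, peaked at Day 7. Foxa3 stood at 2.14 and 2.05 CPM at Day 2, 13.5 and 13.01 CPM at Day 7, and 5.998 and 5.68 CPM at Day 10, and was called at both steps in opposite directions. Foxa2 was near 0 at Day 2 (0.0389 and 0.0281 CPM), 1.84 and 1.65 CPM at Day 7, and 1.15 and 1.01 CPM at Day 10. Dlx5 fell by 0.63 and then rose by 0.24, and Bmp6 rose by 2.88 and was then not called (log2 difference -0.10, edgeR adjusted p = 0.644). Ibsp, a bone matrix glycoprotein gene, went from 0.0876 and 0.281 CPM at Day 2 to 3.34 and 4.96 CPM at Day 7 (log2 change 4.82) and 500 and 721 CPM at Day 10 (log2 change 7.18), and Spp1, encoding osteopontin, from 536 and 547 CPM at Day 7 to 1422 and 1590 CPM at Day 10. Alpl, the alkaline phosphatase gene, stood at 3.32 and 4.25 CPM at Day 2, 18.6 and 16.5 CPM at Day 7, and 85.7 and 90.6 CPM at Day 10.

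Mmp13 belongs to a family of matrix-degrading enzymes, and 16 of its relatives and their inhibitors were tested beside it, of 19 present in the files. Of these, 11 were called higher and 3 lower at Day 7 against Day 2 (median log2 change 1.01), and 12 higher and 1 lower at Day 10 against Day 7 (median 0.49). The inhibitor Timp1 rose from 63.3 and 53.2 CPM at Day 2 to 297 and 296 CPM at Day 7 and 519 and 554 CPM at Day 10, far above the level of Mmp13 in each library. Mmp14, the membrane collagenase gene, rose by 0.32 and 0.51, to 133 and 128 CPM at Day 10. Mmp9, a gelatinase gene made by osteoclasts and hypertrophic chondrocytes, differed between the Day 10 replicates (3.42 and 12.3 CPM) and was called higher at Day 10 than at Day 7 by 1.31 (edgeR adjusted p = 0.0437). The paralogs of the other members did not share one course. Col8a1 and Col8a2, the short-chain collagen genes closest to Col10a1, rose at both steps (log2 changes 1.22 and 0.67 for Col8a1, 0.53 and 0.33 for Col8a2). Panx1 fell by 1.33 from Day 2 to Day 7 and then rose by 0.39, and Panx2, which stood below 1 CPM in every library, rose by 2.01 and then fell by 1.91.

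The other marker lists show what the cultures held around these genes. Of 19 chondrocyte genes, 18 were called higher and 0 lower at Day 7 against Day 2 (median log2 change 3.78), and 0 higher and 19 lower at Day 10 against Day 7 (median -0.89). Col10a1, Mmp13 and Panx3 thus rose at a step in which the chondrocyte list fell as a whole. Of 13 osteoblast genes, which share Ibsp, Alpl, Runx2 and Sp7 with the hypertrophic list, 9 were called higher and 1 lower at the first step (median 1.91) and 13 higher and 0 lower at the second (median 1.87). Of 7 contractile stroma genes, 3 were called higher and 2 lower at the first step and 5 higher and 0 lower at the second. All 7 immune and all 7 osteoclast genes were called higher at Day 10 than at Day 7. Because library sums mix cell types, the part of these shifts in the level of each gene was not tested, and the next sections turn to single cells.

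Each gene was held by a small part of the cells. At Day 10 Col10a1 had at least 1 UMI in 27.5% and 21.3% of cells, Panx3 in 29.7% and 29.1%, and Mmp13 in 8.94% and 8.30%. At Day 7 the shares were 10.0% and 7.13% for Col10a1, 22.5% and 21.3% for Panx3, and 1.36% and 1.20% for Mmp13. With cells thinned to 3000 UMIs, and shallower cells left out (6.84% and 41.4% of the Day 2 cells, 30.8% and 23.5% of those of Day 7, and 7.92% and 10.9% of those of Day 10), the Day 10 shares were 10.3% and 8.90% for Col10a1, 15.2% and 16.4% for Panx3, and 3.35% and 3.51% for Mmp13. The thinned shares kept the order of the days for each gene in every library, for example 0.557% and 0.715%, 10.8% and 9.43%, and 15.2% and 16.4% for Panx3.

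A single UMI is weak evidence in droplet data, since free RNA reaches every droplet. In the immune-like cluster of Day 10, whose median of 21231.5 and 21872 UMIs a cell is close to that of the whole libraries, 17.8% and 12.2% of cells had a Col10a1 UMI and 9.32% and 9.15% a Panx3 UMI. For Mmp13 the share in these cells was 17.8% and 18.3%, about 2 times that in all cells, with a level of 19.9 and 18.3 CPM beside 17.2 and 17.3 CPM in the libraries. The immune-like cells thus give no background level for Mmp13, and whether they express it was not tested. In contractile stroma-like cluster 3, which was deeper at a median of 42917 and 41929.5 UMIs, 6.16% and 5.11% of cells had an Mmp13 UMI. At a gate of at least 3 UMIs the immune-like shares were 0% and 1.83% for Col10a1, 1.69% and 1.83% for Panx3, and 4.24% and 4.88% for Mmp13. Cells with at least 3 UMIs of a gene are called its holding cells from here on. By that gate, Col10a1 was held by 91 and 69 cells at Day 2, by 347 and 291 cells at Day 7, and by 826 and 775 cells at Day 10 (7.95% and 7.79% of cells). Panx3 was held by 17 and 21, 1138 and 1014, and 1639 and 1590 cells (15.8% and 16.0% at Day 10). Mmp13 was held by 0 cells at Day 2 in both libraries (exact 95% upper bounds 0.0390% and 0.0224%), 30 and 34 cells at Day 7, and 228 and 282 cells at Day 10 (2.20% and 2.83%). The Mmp13 share at Day 10 lay below the 4.24% and 4.88% of the immune-like cells and above the 0.714% and 0.319% of contractile stroma-like cluster 3. Holding cells were deeper than others: at Day 10 the median UMIs were 33374.5 and 32058 in Col10a1-holding cells beside 23235 and 20965.5 in the rest, and 25929 and 26512.5 in Mmp13-holding cells beside 24144 and 21927.

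Col10a1 and Mmp13 were concentrated in very few cells, and Panx3 was not. At Day 10, 52 cells of replicate A and 72 cells of replicate B, or 0.501% and 0.724% of the cells, held 50% of all Col10a1 UMIs. For Mmp13 it took 44 and 60 cells (0.424% and 0.603%). For Panx3 it took 394 and 402 cells (3.79% and 4.04%). Panx3 was thus spread over a cell share several times larger in both libraries. Among other genes counted in the same way, Ihh needed 1.29% and 1.21% of cells, Col2a1 5.94% and 5.48% and Runx2 13.01% and 12.5%, while Ibsp needed 0.299% and 0.302%, fewer than Col10a1 or Mmp13. The single richest Col10a1 cell of Day 10 replicate A held 1766 UMIs, 5.23% of the gene's total, and that of replicate B held 730 (3.41%). The richest Mmp13 cell held 314 and 123 UMIs at Day 10 and, at Day 7, 62 and 74 UMIs, or 15.0% and 16.2% of all Mmp13 UMIs there. No Panx3 cell passed 133 UMIs.

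**Figure D2:**
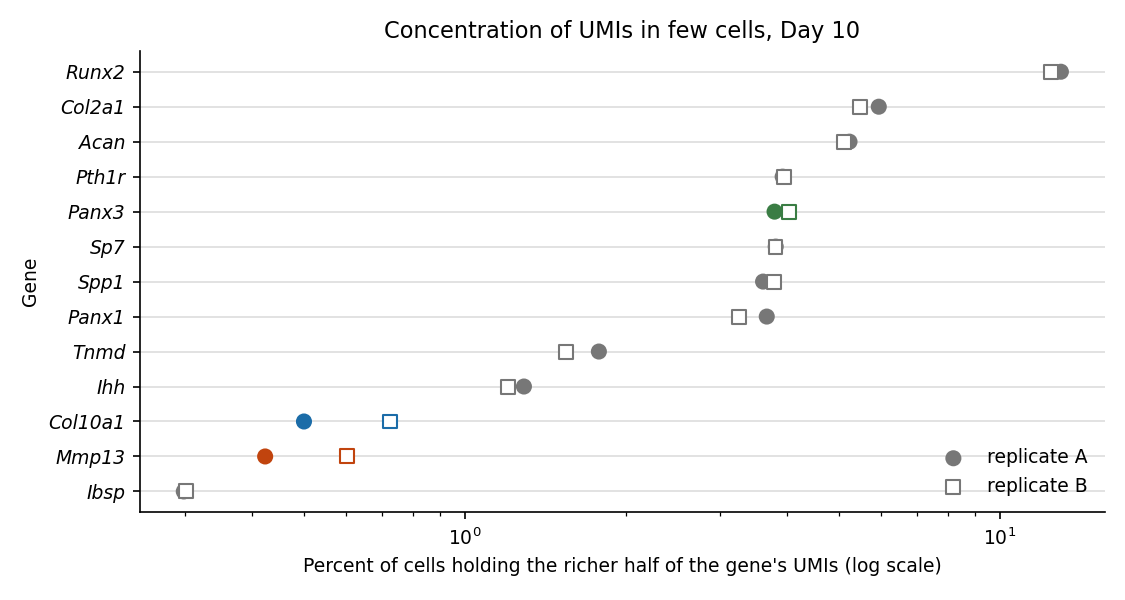
Percent of Day 10 cells that together hold the richer 50% of a gene's UMIs (log scale), for Col10a1, Mmp13, Panx3 and 10 other genes; filled circles are replicate A and open squares replicate B. Col10a1 and Mmp13 lie below 1% in both libraries and Panx3 near 4%, beside Pth1r and Sp7.

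At the earlier days fewer cells had any UMI of each gene, so the share of UMIs in the richest cells is not compared between days. The richest 1% of cells carried 77.6% and 75.9% of Col10a1 UMIs at Day 2, 66.6% and 73.1% of them at Day 7, and 63.7% and 57.3% of them at Day 10. For Mmp13 that share was 68.9% and 61.1% at Day 10, while at Day 7 so few cells had an Mmp13 UMI that the richest 1% held nearly all of them by construction (88.1% and 94.7%). For Panx3 it was 50.8% and 62.4%, 23.8% and 22.3%, and 21.1% and 19.9%. A few cells also bear on the level and on the gap between replicates. Without the 10 richest cells of each library the Day 10 level of Col10a1 was 102 and 75.0 CPM, in place of 130 and 91.9 CPM, and that of Panx3 was 83.2 and 82.2 CPM. For Mmp13 the same step left 1.20 and 1.19 CPM at Day 7 and 12.8 and 13.8 CPM at Day 10, and the order of the days stayed for each gene.

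The 3 genes met in the same cells only in part. At Day 2 the gate left 17 and 21 Panx3-holding cells and 0 Mmp13-holding cells, too few to describe an overlap with the 91 and 69 Col10a1-holding cells. At Day 7 Panx3 was held by 20.2% and 21.99% of Col10a1-holding cells (95% intervals 16.1% to 24.8% and 17.4% to 27.2%), beside 8.13% and 7.88% of the other cells. At Day 10 those shares were 30.4% and 25.3% (27.3% to 33.7% and 22.3% to 28.5%), beside 14.5% and 15.2%. Most Col10a1-holding cells therefore lacked Panx3 at the gate, and the share with it stood above that of other cells in these 4 libraries. At a gate of 1 UMI Panx3 was found in 32.7% and 32.3% of cells with Col10a1 at Day 7, beside 21.3% and 20.4% of the rest. At that gate after thinning to 3000 UMIs, which also leaves out the shallower cells, the Day 7 shares were 11.2% and 7.89% (8.20% to 14.7% and 5.01% to 11.7%), beside 10.8% and 9.48%, so the share in the rest lay inside the interval in both libraries. At Day 10 the thinned shares were 20.9% and 20.8%, beside 14.6% and 16.0%. The difference between the days was not tested. Mmp13 was held by 1 of 347 and 2 of 291 Col10a1-holding cells at Day 7. At Day 10 it was held by 55 of 826 (6.66%, 5.06% to 8.58%) and 37 of 775 (4.77%, 3.38% to 6.52%), beside 1.81% and 2.67% of the other cells. Panx3 was held by 2 of 30 and 2 of 34 Mmp13-holding cells at Day 7, and by 33.3% and 26.6% (27.2% to 39.9% and 21.5% to 32.2%) at Day 10, beside 15.4% and 15.7%. Cells that held all 3 numbered 0 at Day 7 and 19 and 10 at Day 10, with median depths of 42435 and 31481.5 UMIs. The intervals cover counting error within a library only, holding cells were deeper than the rest, and the part of depth and of doublets in these shares was not tested beyond the alternatives in the closing section.

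**Figure D3:**
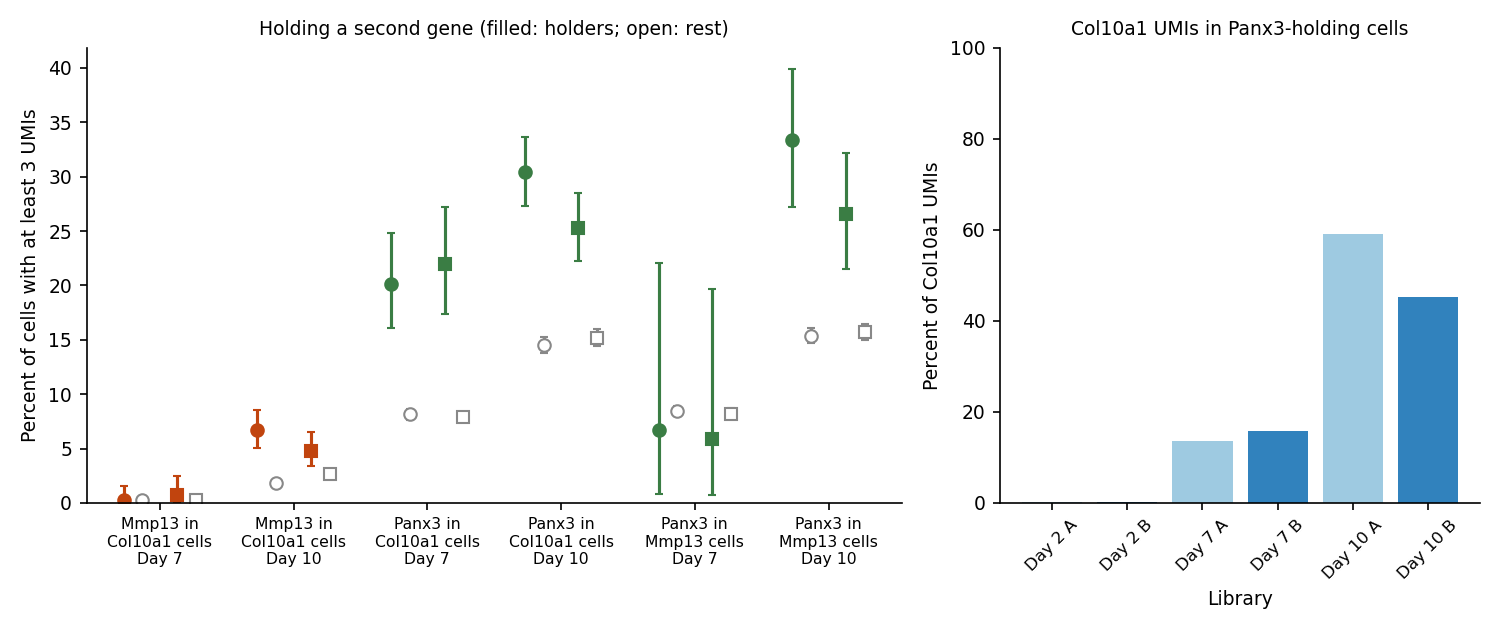
Left, percent of cells holding a second gene at 3 or more UMIs, among cells that hold the first gene (filled) and among the rest (open), with exact 95% binomial intervals; circles are replicate A and squares replicate B. Right, percent of Col10a1 UMIs that lay in Panx3-holding cells in each library, with 59.1% and 45.3% of them at Day 10; points for Day 2 rest on 17 and 21 Panx3-holding cells.

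Counted by molecules, Panx3-holding cells carried 13.6% and 15.8% of Col10a1 UMIs at Day 7, and 59.1% and 45.3% of them at Day 10. The same cells carried 49.2% and 36.9% of Mmp13 UMIs at Day 10. They were deeper than the rest, with medians of 34078 and 33783 UMIs beside 6691 and 7865.5 at Day 7. At Day 10 the medians were 34569 and 31197 UMIs beside 22304.5 and 20223. The share of all UMIs in Panx3-holding cells was not counted, so these shares alone do not show an enrichment. Mmp13-holding cells carried 10.4% and 8.25% of Col10a1 UMIs at Day 10. The larger part of Col10a1 UMIs thus lay in cells without Panx3 at Day 7, and in Day 10 replicate A it lay in cells with Panx3. Across single cells the correlations of log2 levels, scaled to the UMIs of each cell, were weak, at most 0.107 in any pair and library, and are a description only.

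Because Col10a1 lay both in cells with Panx3 and in cells without it, the cells were split by what they held, and UMIs were summed per library and class. Cells holding Mmp13 were taken out of the Col10a1 and Panx3 classes and counted in the Mmp13 classes, whether or not they held Col10a1. The sums were fitted together in edgeR (quasi-likelihood test), each library entering as a covariate, over 15982 genes without the members, in a comparison added after the data were seen. The classes differ in depth, with Day 10 medians of 48308 and 47489 UMIs in Col10a1 cells with Panx3, 30244 and 28849.5 in Col10a1 cells without it, and 21511 and 18763.5 in cells holding none of the genes.

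Col10a1 cells with Panx3 carried cartilage genes and most hypertrophic regulators at levels well above those of Col10a1 cells without it. At Day 10, leaving out cells that held Mmp13, the former numbered 232 and 186 and the latter 539 and 552, and Col10a1 itself stood at 1586 and 1009 CPM in the former and 652 and 533 CPM in the latter. All 19 chondrocyte genes were called higher in the cells with Panx3 (median log2 difference 4.18), as were 19 of 28 hypertrophic genes with 5 lower (median 1.21), where 25.7% of all genes were called higher and 26.4% lower. The median over all genes lay between -0.09 and 0.00 in each comparison of classes. Ihh stood at 219 and 217 CPM in Col10a1 cells with Panx3 and at 6.23 and 2.83 CPM in those without (log2 difference 5.86, SE 0.21, edgeR adjusted p = 2.38e-16). Pth1r stood at 927 and 881 CPM and at 82.6 and 76.2 CPM (log2 difference 3.77, SE 0.07, edgeR adjusted p = 8.53e-21). The transcription factor genes followed the same direction, with log2 differences of 4.48 for Foxa3, 2.55 for Runx3, 2.26 for Sp7, 1.59 for Mef2c and 1.06 for Runx2, all called. The 5 hypertrophic genes called lower were Pthlh (-4.70), Spp1 (-2.32), Ank (-1.93), Mmp14 (-1.41) and Hdac4 (-0.75). Pthlh was near the floor, at 0.0932 and 0 CPM with Panx3 against 2.22 and 1.13 CPM without. Alpl stood at 314 and 297 CPM against 33.5 and 32.5 CPM, and 8 osteoblast genes were called higher and 3 lower (median 2.26). Col2a1, the main collagen gene of cartilage, stood at 23751 and 20806 CPM against 1765 and 1028 CPM. Dissociation-response genes moved with this split, with 8 of 11 called lower and 1 higher in the cells with Panx3 and a summed level of 564 and 594 CPM against 1188 and 1264 CPM. All 5 genes of dividing cells were called lower, and the part of either list in these differences was not tested.

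Col10a1 cells without Panx3 carried instead the genes of contractile stroma. All 7 contractile genes were called lower in the cells with Panx3 (median -2.43), and their summed level was 10443 and 10607 CPM in Col10a1 cells without Panx3 and 1355 and 2111 CPM in those with it. Tagln, an actin-binding protein gene of smooth muscle and myofibroblasts, stood at 2076 and 2129 CPM against 201 and 339 CPM (log2 difference -2.74, SE 0.15, edgeR adjusted p = 3.65e-13). Spp1 was also higher without Panx3, at 1909 and 2182 CPM against 291 and 402 CPM, and so was Col1a1, at 4194 and 3686 CPM against 858 and 940 CPM. All 6 perichondrium genes and the 6 tenocyte genes tested were called lower in the cells with Panx3, as were 10 of 16 matrix-degrading genes, with 3 higher, and 3 of 7 immune genes. Contractile genes summed to 10257 and 11123 CPM in cells holding none of the 3 genes, so the level in Col10a1 cells without Panx3 overlapped that of the bulk of the culture.

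A split in the chondrocyte and contractile genes was present at Day 7 as well, with fewer cells. Col10a1 cells with Panx3 numbered 70 and 64 and those without 276 and 225. Of the chondrocyte genes 19 of 19 were called higher with Panx3 (median 2.69), of the hypertrophic genes 18 were higher and 6 lower (median 0.84), and of the contractile genes 7 of 7 were lower (median -3.10), where 16.2% of all genes were called higher and 18.9% lower. All 5 genes of dividing cells and 5 of 6 perichondrium genes were called lower with Panx3 at this day too, while of 11 dissociation-response genes 2 were higher and 3 lower. Of the tenocyte list Scx, Tnmd, Col3a1 and Fmod were called lower, and Mkx and Thbs4 were not called. Of the interdigital list Hoxa13, Hoxd13, Wnt5a, Msx2 and Bmp4 were called lower at Day 7 and Day 10, and Msx1 and Aldh1a2 at neither. The part of these lists was not tested. Ihh stood at 121 and 92.5 CPM with Panx3 and at 3.74 and 6.22 CPM without. In contrast to Day 10, Col10a1 itself was lower with Panx3 than without at Day 7, at 214 and 255 CPM against 539 and 527 CPM. Both classes are gated on Col10a1 UMIs, so a lower CPM passes the gate in deeper cells. The Day 7 medians were 42579 and 48745.5 UMIs with Panx3 against 30096 and 33284 without, and the part of depth was not tested.

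**Figure D4:**
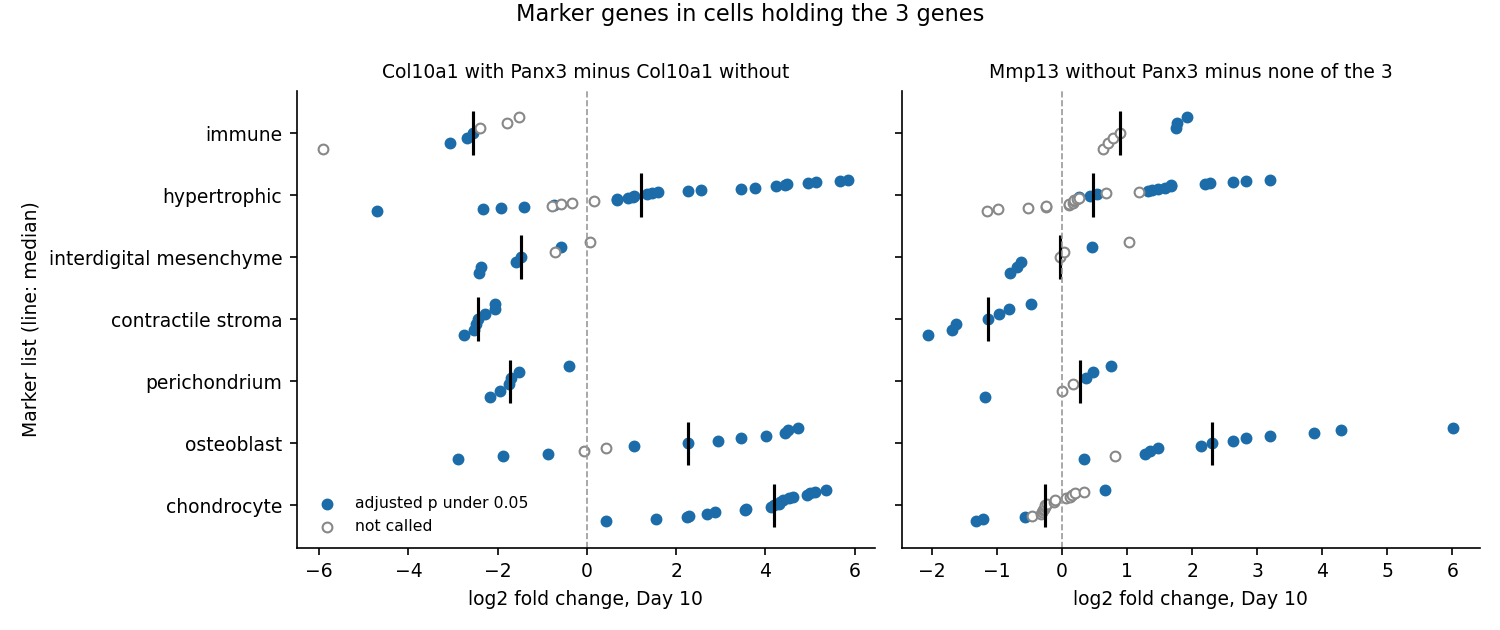
Marker genes at Day 10 as log2 differences, in Col10a1 cells with Panx3 against Col10a1 cells without it (left) and in Mmp13 cells without Panx3 against cells holding none of the 3 genes (right). Each point is a gene, filled where the edgeR adjusted p is under 0.05, and lines are medians, from 4.18 for chondrocyte genes to -2.43 for contractile genes on the left and 2.30 for osteoblast genes on the right.

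Col10a1 cells without Panx3 or Mmp13 were then set against the cells holding none of the genes at each day. At Day 2 there were 91 and 69 of them, the only Col10a1 class large enough to test. In them 6 of 7 contractile genes were called higher and 0 lower (median 0.92), 0 of 19 chondrocyte genes higher and 7 lower (median -0.65), and 5 hypertrophic genes higher and 4 lower, where 5.93% of all genes were called higher and 6.49% lower. At Day 7 all 7 contractile genes were called higher (median 0.92) and all 19 chondrocyte genes lower (median -1.46), where 16.3% of all genes were called higher and 14.5% lower. At Day 10 only 1 contractile gene was called higher (median -0.07) and 14 chondrocyte genes lower (median -0.82), where 5.8% of all genes were called higher and 6.41% lower. Dissociation-response genes moved with this class too, with 7 of 11 called lower and 0 higher at Day 7 (summed level 574 and 526 CPM against 1312 and 1390 CPM), 6 lower and 2 higher at Day 2, and 5 lower and 0 higher at Day 10. Of 8 muscle genes 5 were called lower at Day 2 and 5 at Day 7, and of 7 immune genes 2 were called lower at Day 7 and all 7 at Day 10, with 0 higher in either list. Other lists moved at Day 2 as well. Thbs2, Col1a2 and Col12a1 of the perichondrium list were called higher and Postn lower, and Ogn and Aspn were not called. Scx, Tnmd and Mkx of the tenocyte list were called lower, and Col3a1, Fmod and Thbs4 were not called. The erythrocyte genes Hbb-y, Hba-x and Hba-a1 were called lower. The part of these lists in the other differences was not tested. The contractile difference was thus seen at Day 2 and Day 7 and not at Day 10, where the change between days was not tested. Median depth in these Col10a1 cells was 28174 and 34421 UMIs at Day 2, against 18463.5 and 3843 in the cells holding none. At Day 7 it was 30096 and 33284 UMIs against 6417 and 7537. The part of depth in this pattern was not tested. The interdigital list was mixed, with 3 of 7 genes called higher and 3 lower at Day 2, 4 higher and 1 lower at Day 7, and 3 higher and 0 lower at Day 10. Hoxa13, Hoxd13 and Aldh1a2 were those lower at Day 2, with log2 differences of -2.71, -2.05 and -2.77, and Aldh1a2, named after its values were seen, was lower at Day 7 by a log2 difference of -1.78. Msx2, a homeobox gene of that list, was higher in these Col10a1 cells at each day: 121 and 99 CPM against 45.1 and 37.4 CPM at Day 2, 43.3 and 48.5 CPM against 11.3 and 11.8 CPM at Day 7, and 38.6 and 44.5 CPM against 13.8 and 13.8 CPM at Day 10. Spp1 was called higher at Day 2 (log2 difference 1.75) and Day 7 (1.46) but not at Day 10 (0.17, edgeR adjusted p = 0.829). Runx2 was called higher at Day 2 by 0.68 and lower at Day 7 by a log2 difference of -0.22. Ihh was not called at Day 7 (log2 difference -0.31, edgeR adjusted p = 0.582) or Day 10 (0.78, edgeR adjusted p = 0.136). Of the other hypertrophic genes, Mmp9 (-2.33), Gli1 (-1.96), Scin (-1.79), Alpl (-1.41), Foxa3 (-1.21), Ptch1 (-1.08), Enpp1 (-0.73), Vegfa (-0.72) and Pth1r (-0.24) were called lower at Day 7. Ibsp (1.77), Ank (1.04), Mmp14 (0.28) and Mef2d (0.24) were called higher at that day. At Day 10 Mmp9, Scin, Ptch1, Enpp1 and Gli1 were called lower, and Sp7, Mef2c, Pth1r and Ank higher.

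Panx3 cells without Col10a1 or Mmp13 were the largest class holding any of the genes, with 1331 and 1329 cells at Day 10 and Panx3 at 359 and 355 CPM. Against cells holding none of the genes, 19 of 19 chondrocyte genes were called higher (median 3.02), 10 osteoblast genes higher and 1 lower (median 3.24), 20 hypertrophic genes higher and 7 lower (median 1.27), and 7 of 7 contractile genes lower (median -2.16), where 31.0% of all genes were called higher and 31.2% lower. Ihh stood at 87.6 and 94.6 CPM against 2.64 and 2.49 CPM and Ibsp at 2295 and 3628 CPM against 54.9 and 28.8 CPM. The Ibsp sums can rest on few cells, since 31 and 30 cells held 50% of all Ibsp UMIs at Day 10, and how many of those lay in each class was not counted. Other lists were called lower in this class, with 7 of 7 immune genes (summed level 22.7 and 19.3 CPM against 132 and 168 CPM), 5 of 5 genes of dividing cells (162 and 196 CPM against 312 and 364 CPM) and 6 of 6 perichondrium genes (3293 and 3417 CPM against 6367 and 5869 CPM). Of 11 dissociation-response genes 7 were lower and 2 higher (974 and 1192 CPM against 1430 and 1470 CPM), and the part of these lists was not tested. The class median of 32590 and 29769 UMIs a cell was above that of the cells holding none.

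Mmp13 cells without Panx3, which numbered 152 and 207 at Day 10, were higher for osteoblast genes and, in most part, not for cartilage genes. Against cells holding none of the genes, 12 of 13 osteoblast genes were called higher and 0 lower (median 2.30), and 14 of 28 hypertrophic genes higher and 0 lower (median 0.48), where 8.06% of all genes were called higher and 8.87% lower. Of the chondrocyte genes 1 was called higher and 3 lower, and of the contractile genes 7 were lower (median -1.13). Bglap, the osteocalcin gene of mature osteoblasts, stood at 24.1 and 32.6 CPM against 1.58 and 1.37 CPM, though it lies beside near-identical copies such as Bglap2 that can share reads. Alpl stood at 355 and 248 CPM against 31.9 and 31.7 CPM, and Sp7 at 43.9 and 41.8 CPM against 7.07 and 6.53 CPM. Hedgehog targets and a receptor were higher too, with Ptch1 at 270 and 209 CPM against 62.3 and 84.7 CPM and log2 differences of 1.39 for Gli1 and 1.67 for Pth1r, while the ligand Ihh was not called (log2 difference 0.18, edgeR adjusted p = 0.898). Tnfsf11, the osteoclast differentiation signal, stood at 16.3 and 21.4 CPM against 4.23 and 3.97 CPM. Immune markers moved with this class: 3 of 7 were called higher, and their summed level was 328 and 337 CPM in Mmp13 cells without Panx3 against 132 and 168 CPM in cells holding none. It was 1.55 and 3.56 CPM in Mmp13 cells with Panx3, and the part of immune cells in the former class was not tested in this comparison. Of the dissociation-response genes 9 of 11 were also called higher in this class, as were 3 of 5 dividing-cell genes.

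Mmp13 cells with Panx3 numbered 76 and 75. Their sums were higher for both osteoblast and chondrocyte genes than those of Mmp13 cells without Panx3. Whether single cells carried both sets was not counted. The summed chondrocyte genes differed between the replicates of this class, at 19118 and 11755 CPM. They stood below the 42891 and 40468 CPM of Panx3 cells without Col10a1 or Mmp13. The summed osteoblast genes, at 9745 and 8814 CPM, stood above the 5060 and 6760 CPM of those Panx3 cells. Against Mmp13 cells without Panx3, 16 of 19 chondrocyte genes were called higher (median 1.40), 9 of 13 osteoblast genes (median 1.46) and 11 hypertrophic genes with 1 lower (median 0.51), while 7 of 7 contractile and 7 of 7 immune genes were lower, where 4.19% of all genes were called higher and 5.41% lower. In the same comparison 2 of 5 genes of dividing cells were called higher, and 4 of 6 perichondrium genes and 3 of 6 tenocyte genes tested were called lower, and the part of these lists was not tested. Ibsp stood at 3878 and 3376 CPM against 337 and 268 CPM, Bglap at 152 and 126 CPM against 24.1 and 32.6 CPM, and Ihh at 49.2 and 15.8 CPM against 5.62 and 1.11 CPM. Tnfsf11 (log2 difference -0.77, edgeR adjusted p = 0.133) and Spp1 (0.40, edgeR adjusted p = 0.612) were not called.

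Mmp13-holding cells were also compared directly with cells that held Col10a1 and not Mmp13, whatever their Panx3, over 14171 genes. At Day 10 the Mmp13 side was the mean of 2 classes with equal weight, Mmp13 without Col10a1 (173 and 245 cells) and both genes (55 and 37 cells), against 771 and 738 cells with Col10a1 alone of the pair, and the CPM given for Mmp13-holding cells sum both classes. At Day 10, 9 of 13 osteoblast genes were called higher in Mmp13-holding cells and 0 lower (median log2 difference 1.49), 14 hypertrophic genes higher and 4 lower (median 0.39), and 1 chondrocyte gene higher and 17 lower (median -1.18), where 9.92% of all genes were called higher and 13.1% lower. Other lists moved with this comparison: 8 of 11 dissociation-response genes and all 5 genes of dividing cells were called higher and 0 lower. The summed dissociation-response level was 2113 and 2177 CPM in Mmp13 cells without Col10a1 against 944 and 1044 CPM in the Col10a1 cells. The 7 immune genes were not called by edgeR, but they summed to 268 and 265 CPM in Mmp13 cells without Col10a1 and 2.87 and 8.45 CPM in cells with both, against 4.74 and 34.7 CPM in the Col10a1 cells. The part of these lists in the differences was not tested. The largest called differences among genes of at least 50 CPM were those of Bglap (76.3 and 62.4 CPM in Mmp13-holding cells against 7.04 and 1.33 CPM, log2 difference 3.84) and Bglap2 (log2 difference 3.62). They were followed by Matn1, a cartilage matrix gene, and Ihh, both lower by 2.39 on the log2 scale, with Ihh at 23.4 and 5.78 CPM against 89.5 and 73.1 CPM. The remaining 6 were higher in Mmp13-holding cells: Iqgap2 (2.37), Slc40a1, the iron exporter (2.36), Tfrc, the transferrin receptor (2.33), Slpi, a protease inhibitor (2.32), Srpx2 (2.29) and Wif1, a WNT inhibitor (2.19). At a gate of 1 UMI all 10 differences were smaller, with Matn1 at -0.56 and Ihh at -0.92, and that of Ihh was no longer called (edgeR adjusted p = 0.0532). Without Day 10 replicate A the Ihh difference was -3.84. Panx3 did not differ beyond the spread, at 153 and 82.8 CPM against 163 and 129 CPM (log2 difference -0.21, edgeR adjusted p = 0.523), and its direction and call changed under some alternatives in the closing section.

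At Day 7 this comparison rested on 29 and 32 Mmp13-holding cells without Col10a1, since the 1 and 2 cells holding both were too few for a class. Contractile genes were lower in them (0 of 7 called higher and 7 lower, median -1.18) and 4 osteoblast and 8 hypertrophic genes higher with 0 lower, where 4.81% of all genes were called higher and 7.54% lower. Slc40a1 (log2 difference 3.33) and Tfrc (2.17) were called at this day too, and Bglap was not. The 7 immune genes were all called higher, but their summed level was 0 CPM in Mmp13-holding cells of replicate A and 725 CPM in those of replicate B, so that count rests on 1 library. Muscle genes did the reverse, with 6 of 7 tested called higher and a summed level of 1494 CPM in replicate A but 6.60 CPM in replicate B, beside 22.6 and 20.2 CPM in the Col10a1 cells. Of 11 dissociation-response genes 9 were called higher, with a summed level of 2401 and 2294 CPM against 538 and 523 CPM. The summed chondrocyte genes differed between the replicates of the Mmp13 class, at 17949 and 7209 CPM, beside 18785 and 18696 CPM in the Col10a1 cells. The part of these other markers in the Day 7 differences was not tested. The immune-like clusters held 0 and 2 of these cells at Day 7, and 5 and 8 of the Mmp13-holding cells without Col10a1 at Day 10. Without the cells of those clusters the Day 10 differences were 3.86 for Bglap, -2.34 for Ihh and 2.39 for Slc40a1, all called.

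Clusters were rebuilt for each day without the 3 genes or the hypertrophic list among the clustering features, which gave 13 clusters at Day 2, 17 at Day 7 and 18 at Day 10. Levels per cluster are a description, since the clusters come from the same cells. At Day 10 Panx3 was high in every chondrocyte-like cluster and in the osteoblast-like one: 512 and 504 CPM in cluster 10, 288 and 296 CPM in cluster 1, 264 and 323 CPM in cluster 8, 258 and 304 CPM in cluster 9, and 326 and 286 CPM in osteoblast-like cluster 17. Clusters 8, 9 and 10 held shallow cells. In the library where it was lowest, their median depth was 0.177, 0.183 and 0.346 of the library median, beside 1.514 for cluster 1. Lars2 led cluster 8 and Xist led cluster 9, and the part of depth in these clusters was not tested. Cluster 1 alone, led by Snorc, Scin and Ihh, held 65.6% and 61.2% of Panx3 UMIs and 45.3% and 34.95% of Col10a1 UMIs. Col10a1 peaked in chondrocyte-like cluster 10 of replicate A, at 967 CPM, but stood at 108 CPM in the same cluster of replicate B. In unnamed cluster 14, led by Serinc5, Chst11 and Fgfr3, Col10a1 stood at 326 and 242 CPM, and in cluster 1 at 299 and 183 CPM. In osteoblast-like cluster 17, led by Ifitm5 and Ibsp, 93.1% and 97.1% of cells held at least 3 Panx3 UMIs, while Col10a1 stood at 12.1 and 4.93 CPM. Mmp13 was highest in unnamed cluster 5, led by Gpha2, Hhip, Bmp3 and Bglap2, at 106 and 111 CPM, and this cluster held 39.9% and 45.4% of Mmp13 UMIs in 6.58% and 6.93% of cells. Within it 14.6% and 18.0% of cells held at least 3 Mmp13 UMIs, beside 4.24% and 4.88% of the immune-like cells, which give no background level for this gene.

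**Figure D5:**
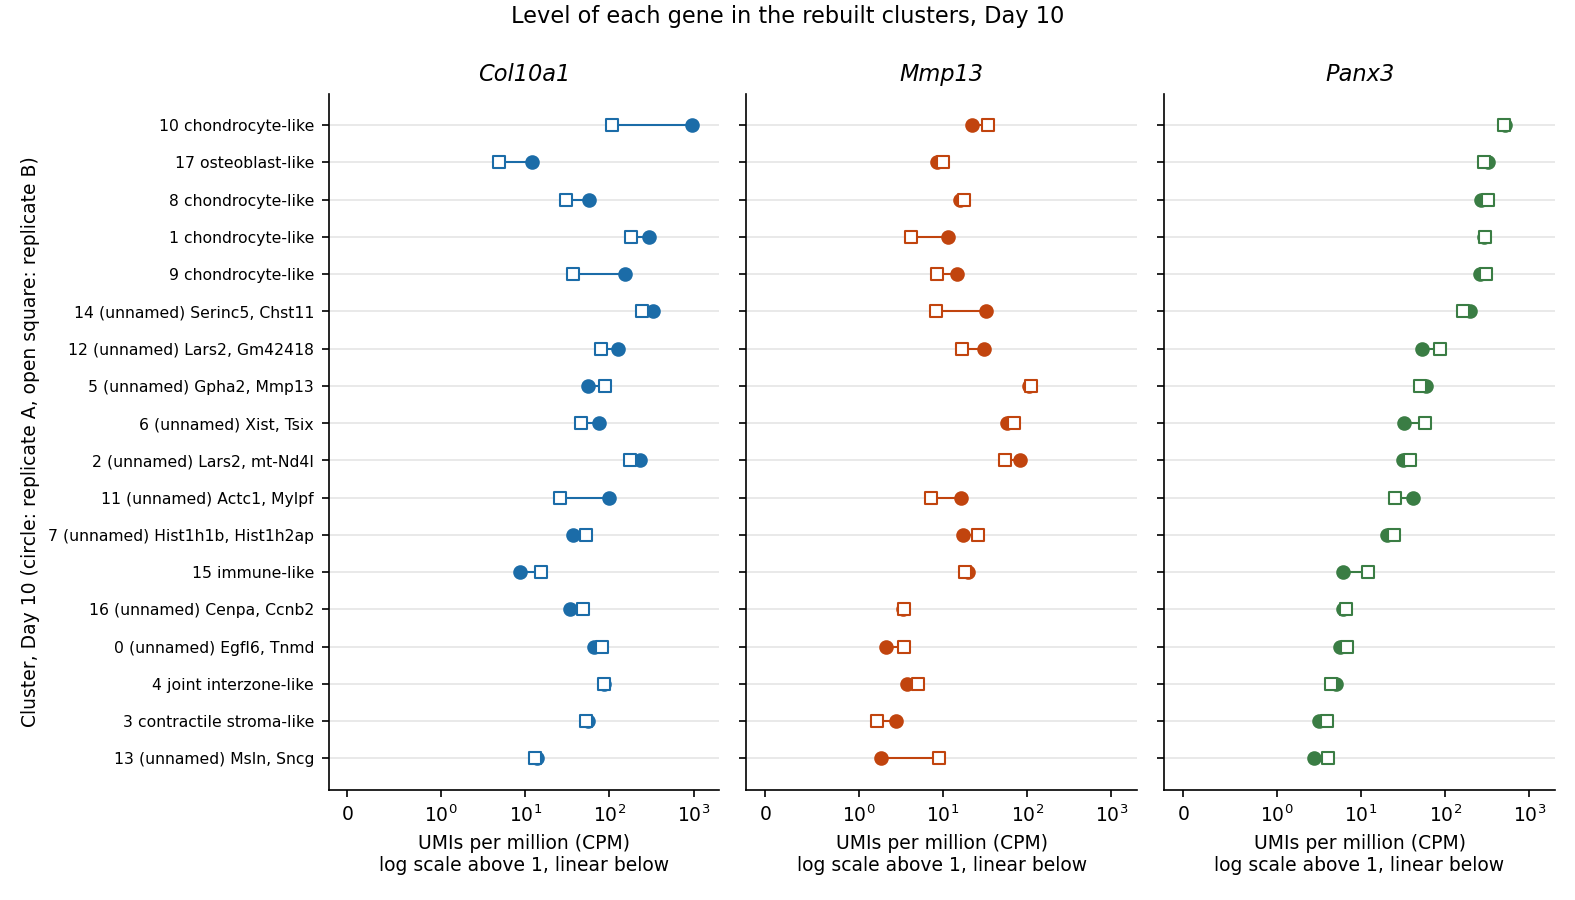
Level of each gene in CPM (log scale above 1 and linear below) in the 18 rebuilt clusters of Day 10, one row a cluster, ordered by Panx3; filled circles are replicate A and open squares replicate B. Panx3 is highest in the chondrocyte-like and osteoblast-like clusters, Mmp13 in cluster 5, and Col10a1 in cluster 10 of replicate A.

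At the earlier days Col10a1 and Panx3 peaked in different clusters. At Day 7 Col10a1 was highest in unnamed cluster 2, in which all 7 contractile markers were enriched, at 73.2 and 65.9 CPM, and this cluster held 53.9% and 54.7% of its UMIs. Panx3 at Day 7 lay elsewhere, at 192 and 173 CPM in cluster 7 and at 88.4 and 78.6 CPM in cluster 1, which held 65.0% and 65.3% of its UMIs. Mmp13 at Day 7 was scattered, and its highest clusters differed between replicates, with 21.6 and 2.79 CPM in dividing-like cluster 12 and 1.10 and 19.8 CPM in chondrocyte-like cluster 7. At Day 2 cluster 1, with 6 of 7 contractile markers, held 63.8% and 34.7% of Col10a1 UMIs, and chondrocyte-like cluster 5 held 64.2% and 58.1% of Panx3 UMIs.

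Over the 70 sums by cluster and library at Day 7 and Day 10, each gene's level was set beside that of 10142 other genes. The 5 genes most like Panx3, by Pearson correlation of log2(CPM + 1), were Trpv4 (0.89), Smpd3 (0.89), Itga10 (0.89), P3h2 (0.88) and Pth1r (0.88). For Col10a1 they were Ccdc80 (0.70), Sidt2 (0.67), Mfge8 (0.66), Fmod (0.65) and Unc5b (0.62). For Mmp13 they included Serpine2 (0.64), Plekhh3 (0.64), Alpl (0.64) and Smad6 (0.63). Between the members the values were lower, 0.41 for Col10a1 and Mmp13, 0.36 for Col10a1 and Panx3, and 0.34 for Mmp13 and Panx3. Panx3 thus had close companions over the clusters, and Col10a1 and Mmp13 were less like any of the genes compared than Panx3 was like its own. The part of a few rich cells in the lower values of Col10a1 and Mmp13 was not tested. These are descriptions without a test, since the sums share libraries and depth.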

How the data were processed

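Single-cell RNA sequencing was carried out on 2 independent DID cultures at each of 3 time points, giving 6 libraries made with the 10x Genomics 3′ V3.1 kit. The authors deposited unnormalized UMI counts per gene and cell barcode, which the submitters' processing notes tie to Cell Ranger 6.1.2, STAR, Seurat 4.1.0 and the mouse build GRCm38 (mm10). Barcodes were kept by the filters of the study: a minimum of 800 or 1000 UMIs by library, 200 to 7500 genes, at most 25% to 40% mitochondrial and 35% to 40% ribosomal UMIs. Doublets were not removed. Precision is set by 9448 to 16486 kept cells and 178022112 to 260245417 UMIs a library, and intervals (exact binomial or Poisson, 95%) cover counting error only.

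UMIs were summed per library, or per library and cell class of at least 20 cells, and tested with edgeR 4.0.16 in R 4.3.3 (TMM factors 0.927 to 1.14, filterByExpr, quasi-likelihood, two-sided) with Benjamini-Hochberg adjustment over all genes tested. Fits had 3 residual degrees of freedom for days, 5 for Mmp13-holding against Col10a1-holding cells and 10 for the classes split by Panx3. The common biological coefficient of variation between days was 0.0689. DESeq2 1.42.0 and limma 3.58.1 were alternatives. Clusters were rebuilt per day with Seurat 5.3.0 and sctransform 0.4.2. Counting and plots used matplotlib 3.10.9, scipy 1.17.1, pandas 2.3.3 and numpy 2.4.6 under Python 3.11.15. Each test was checked on simulated counts with known changes. The members and the gene lists were chosen with earlier results of these data known. Genes were named where they were members, among the 6 highest of their list over the libraries, regulators, ligands or receptors of the hypertrophic list, among the 10 largest called differences of at least 50 CPM between Mmp13-holding and Col10a1-holding cells, or among the 5 most like a member; Bglap and Tnfsf11 in the class split and the leading genes of clusters were named after their values were seen. One gene that this rule would name is not reported here. The split by Panx3, the sums without immune-like clusters, the levels without the richest cells and the alternatives of the split were added after the data were seen. Alternatives were other scalings, filters, gates of 1 and 10 UMIs, thinning to 1000 and 3000 UMIs, cluster resolutions, cell filters, a replicate block and leaving out each library.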

Additional observations from a re-analysis of the deposited data

Results flagged for a closer look

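Srpx2, an extracellular protein gene, stood out because its difference between Mmp13-holding and Col10a1-holding cells changed with the day. The change from Day 7 to Day 10 in that log2 difference was 1.64 (SE 0.27, edgeR adjusted p = 0.00623, Benjamini-Hochberg), and the Day 7 side rests on 29 and 32 Mmp13-holding cells without Col10a1. The Day 10 side also averages in the class holding both genes (55 and 37 cells), which the Day 7 side lacks. The part of this difference in classes in the change was not tested.

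The 3 genes were also seen in barcodes that the filter on UMIs leaves out, which no comparison above used. Over both libraries of a day, Col10a1 stood in these barcodes at 4.39 CPM at Day 2 (10 UMIs in 3172 barcodes), 40.2 CPM at Day 7 (221 UMIs in 7031 barcodes) and 173 CPM at Day 10 (99 UMIs in 891 barcodes), beside 4.76, 29.7 and 112 CPM in kept cells. Mmp13 stood at 5.64 CPM at Day 7 (31 UMIs) and 52.4 CPM at Day 10 (30 UMIs), beside 2.13 and 17.3 CPM in kept cells. Panx3 stood at 41.1 CPM at Day 7 (226 UMIs) and 107 CPM at Day 10 (61 UMIs), beside 44.9 and 85.7 CPM. The part of small cells, fragments and free RNA in these barcodes was not tested.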

How the results depend on the processing

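The day to day changes of Col10a1, Mmp13 and Panx3 kept their direction and call under all 16 alternatives, with adjusted p at most 0.00186. Scaling by library totals alone moved the median of all genes by -0.27 for Day 7 against Day 2 and -0.26 for Day 10 against Day 2, and the Col10a1 change from Day 2 to Day 7 then ranged down to 2.64. The sources used here do not say whether a replicate letter marks a shared seeding or embryo pool, and the differences between A and B correlated between days at -0.034, -0.094 and -0.259 over 8031 genes. With the replicate letter as a block the changes from Day 7 to Day 10 were 1.86 for Col10a1, 3.001 for Mmp13 and 0.91 for Panx3, with 4891 genes higher and 4716 lower, and no member's call changed.

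Between Mmp13-holding and Col10a1-holding cells, a gate of 1 UMI gave 1118 genes lower at Day 10 and 1860 at Day 7 (1861 and 1068 at 3 UMIs), and DESeq2 gave 1165 higher at Day 7 (682 with edgeR). Leaving out 1 library gave 656 to 1347 higher and 937 to 1846 lower at Day 10, the lowest without Day 10 replicate A, and 304 to 728 higher and 424 to 1051 lower at Day 7, the lowest without Day 7 replicate A. Without Day 10 replicate B there were 751 higher and 1038 lower at Day 10, and without Day 7 replicate B there were 411 higher and 679 lower at Day 7. At a gate of 1 UMI the Ihh difference was no longer called (-0.92, edgeR adjusted p = 0.0532). A gate of 10 UMIs left no Day 7 class of 20 cells. The Panx3 difference of -0.21 turned to 0.12 without the deepest 5% of cells and 0.041 without Day 10 replicate B, and it was called at -0.58 (gate of 10), -0.22 (no filter on low counts) and -0.84 (without Day 10 replicate A). The single contractile gene called in Col10a1 cells without Panx3 at Day 10 was lost (0 called) with no replicate block and without Day 10 replicate B. The cause of these changes was not tested.

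Shares of cells depend on the gate and on depth by construction. Mean Day 10 shares with at least 1 UMI, at least 3, at least 10, and thinned to 1000 and 3000 UMIs were 24.4%, 7.87%, 3.94%, 4.95% and 9.59% for Col10a1, 8.62%, 2.51%, 0.940%, 1.68% and 3.43% for Mmp13, and 29.4%, 15.9%, 7.25%, 7.54% and 15.8% for Panx3. The richest 1% of cells held 52.6% of Col10a1 UMIs after thinning to 3000, against 60.5%. Mmp13 was held by 10.3% of Col10a1-holding cells at a gate of 1 and 3.20% at 10, against 5.72% at 3. Panx3 was held by 36.4% of them at a gate of 1, 20.8% after thinning and 23.3% without the deepest cells, against 27.8%, and by 41.3%, 11.5% (gate of 10) and 20.6% (thinned) of Mmp13-holding cells, against 29.96%. The highest cluster mean of Mmp13 was 75.5 CPM at a halved resolution and 159 CPM at a doubled one, against 108 CPM, and that of Panx3 was 520 CPM at the halved one, against 508 CPM.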

Other observations

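Other marker lists were counted between the same libraries in which the 3 genes rose. Of all genes tested, 35.7% were called higher and 34.6% lower at Day 7 than at Day 2. At Day 10 against Day 7, 26.3% were called higher and 25.9% lower. A count near those shares says nothing particular about its list. All 6 perichondrium genes were called higher at Day 7 than at Day 2 and 5 of 6 were higher at Day 10 than at Day 7, while all 8 muscle genes were lower at Day 7 and 7 of 8 lower again at Day 10. All 7 interdigital mesenchyme genes were called lower at Day 7 than at Day 2, and then 2 were higher and 1 lower. All 5 erythrocyte genes and all 5 genes of dividing cells were called lower at Day 7 than at Day 2. Of 7 joint interzone genes, 1 was called higher and 5 lower at the first step, and 1 higher and 3 lower at the second.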
